A study of Mus musculus with 13 samples.

Results

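The enzymes of serine synthesis and of mitochondrial and cytosolic folate metabolism were followed by ribosome footprinting in mouse fibroblasts treated with thapsigargin (Tg), an inhibitor of the calcium pump of the endoplasmic reticulum (ER). The genes were picked by symbol, and all 10 were found among the 22406 genes of each table: Phgdh, Psat1 and Psph of serine synthesis, Shmt2, Mthfd2, Mthfd1l and Aldh1l2 of the mitochondrial folate pathway, the mitochondrial folate carrier Slc25a32, and Shmt1 and Mthfd1 of the cytosolic pathway. Footprints are the pieces of mRNA that ribosomes cover, so the values report the share of a library's ribosomes that sit on a coding sequence. They combine mRNA level with ribosome load. The libraries came from mouse embryonic fibroblasts (MEFs) that were PERK WT or PERK -/- and from the mouse fibroblast line NIH3T3, whose genotype for PERK the labels do not state. PERK WT MEFs and PERK -/- MEFs were each sampled untreated and after 1, 2, 5 and 8 h of 1 µM Tg, and NIH3T3 cells untreated and after 2 and 7 h of 200 nM Tg. By their label the PERK -/- controls lack PERK too, and the doses differed between MEFs and NIH3T3 cells, as did some of the times. Cells were detached with trypsin and frozen in liquid nitrogen, and no cycloheximide was used. The 13 conditions had 1 library each, which leaves every difference below without a replicate check, and genotype cannot be told apart from other differences between the MEF populations. Total expected counts per library ran from 2525029 (WT MEFs, 2 h) to 11949174 (WT control) in WT MEFs, from 6735073 (control) to 14799515 (2 h) in PERK -/- MEFs, and from 2569965 (2 h) to 11121006 (control) in NIH3T3 cells.

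Cells make serine from the glycolytic intermediate 3-phosphoglycerate in a chain of steps run by Phgdh, Psat1 and Psph. Serine hydroxymethyltransferases then move a carbon unit from serine onto tetrahydrofolate and release glycine, and the folate-bound unit serves purine, thymidylate and methionine synthesis. The pathway runs in parallel in mitochondria and cytosol, and several of its genes are known targets of the transcription factor Atf4, whose translation rises when PERK or a related kinase phosphorylates eIF2alpha.

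The genotype label was compared with the footprints of Eif2ak3, the gene of PERK. Its counts scaled to a fixed library total (CPM) were 21.3 in the WT control and 14.4, 19.0, 33.3 and 32.7 at 1, 2, 5 and 8 h. Values of PERK -/- MEFs were 10.99 untreated and 8.99, 7.64, 13.2 and 19.1 after the same times. The PERK -/- value was the lower in each matched pair of libraries, but reads were present, with 74 to 142 counts per library. On the TPM scale (transcript shares, with counts divided by coding length and scaled within a library) the PERK -/- control stood higher, at 11.2 against 6.03, as did the libraries at 5 h (14.9 against 14.0) and 8 h (17.2 against 15.7). A gene total cannot show whether those reads lie in the part of the gene that was deleted. NIH3T3 cells had 34.6, 25.7 and 49.7 CPM of Eif2ak3 in the control and at 2 and 7 h.

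Atf4 separated the genotypes more clearly in the treated libraries, though not in the controls. WT MEFs had 34.5 TPM of Atf4 untreated and 487, 551, 569 and 576 after 1, 2, 5 and 8 h. Atf4 in PERK -/- MEFs was at 41.4 TPM untreated and 25.1, 34.2, 60.2 and 58.2 after these times. No treated PERK -/- library came near the treated WT libraries. In NIH3T3 cells Atf4 rose from 178 TPM to 1491 at 2 h and stood at 527 at 7 h, so the untreated NIH3T3 library already lay above every PERK -/- MEF library. The NIH3T3 libraries form a table of their own, and levels set side by side across the tables are a description.

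The fibroblast label was compared with marker genes. All 7 fibroblast markers (Col1a1, Col1a2, Col3a1, Vim, Fn1, Thy1 and Pdgfrb) had counts in every library, with a summed level of 4132 to 6637 TPM in MEFs and 3448 to 4935 in NIH3T3 cells. Col3a1 was under 2 TPM in all 3 NIH3T3 libraries (0.64 to 1.67 TPM), and Pdgfrb stood at 2.27 to 5.36 TPM there. Vim was the most abundant of them in all libraries except the NIH3T3 control, where it was Col1a2. The 4 epithelial markers (Epcam, Krt8, Krt18, Cdh1) summed to 5.16 to 17.7 TPM, led by Krt18 in MEFs and Krt8 in NIH3T3 cells. The 3 endothelial markers (Pecam1, Cdh5, Kdr) summed to 1.41 to 5.14 TPM, with Pecam1 at 0 counts in all MEF libraries. The 4 macrophage and leukocyte markers (Ptprc, Adgre1, Cd68, Csf1r) summed to 0.21 to 4.80 TPM, and Adgre1 was at 0 counts in every library.

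Paralogs of the mitochondrial and cytosolic pathways could in principle share reads, so their coding sequences were compared base by base. The longest identical stretch of each pair is printed here because it sets whether a footprint of 22 to 34 nt could fit both genes exactly.
Shmt2 and Shmt1: cccaagactggcaaagaga
Mthfd2 and Mthfd1: cccatgaccgtggc
Mthfd1l and Mthfd1: ggaacgatgagcacaatgcc
Mthfd2 and Mthfd2l: cccatgaccgtggccatgct
Aldh1l2 and Aldh1l1: ctcaacgtgctccccttctgca
These stretches are 19, 14, 20, 20 and 22 bases long and lie in the coding sequences after the removal of 30 nt at each end. Of the 5 pairs, Aldh1l2 and Aldh1l1 alone shared a window as long as the shortest footprint, and they shared 1 such window. Alignments with mismatches were not assessed.

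The genes lie on several chromosomes of the GRCm38 build. Phgdh is at chr3:98313171-98339969, Psat1 at chr19:15905123-15925059 and Psph at chr5:129765558-129787443, all on the minus strand. Chromosome 10 carries 3 of the mitochondrial enzymes, with Mthfd1l at chr10:3972892-4167081 on the plus strand and Aldh1l2 at chr10:83487447-83534146 and Shmt2 at chr10:127517123-127522444 on the minus strand. Mthfd2 is at chr6:83305704-83326011 and Slc25a32 at chr15:39091230-39112720, both on the minus strand. Of the cytosolic enzymes, Shmt1 is at chr11:60788897-60811265 (minus strand) and Mthfd1 at chr12:76254406-76319820 (plus strand). Coding lengths ran from 675 bases in Psph to 2931 in Mthfd1l, and the GC content of the coding sequences from 47.6% in Slc25a32 to 59.1% in Shmt2.

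Before treatment the genes differed widely in level. In the WT control Phgdh (379.9 TPM) and Psat1 (308 TPM) stood highest, above 95.3% and 94.3% of the 10432 genes that passed a limit on low values (mean TPM of 2 or more). Shmt2 (178 TPM), Mthfd2 (148 TPM) and Mthfd1 (96.1 TPM) followed. Aldh1l2 was the lowest of the 10, at 4.90 TPM and above 17.9% of genes. The PERK -/- control had Phgdh, Psat1, Shmt2 and Mthfd2 in the same first 4 places and Aldh1l2 again last, at 7.88 TPM. In the untreated NIH3T3 library Psat1 (514 TPM) led, Aldh1l2 (90.9 TPM) took the sixth place and Shmt1 (26.4 TPM) the last. Aldh1l2, the enzyme that oxidises 10-formyltetrahydrofolate in mitochondria, was thus near the bottom of the list in untreated MEFs and in its middle in untreated NIH3T3 cells.

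**Figure D1:**
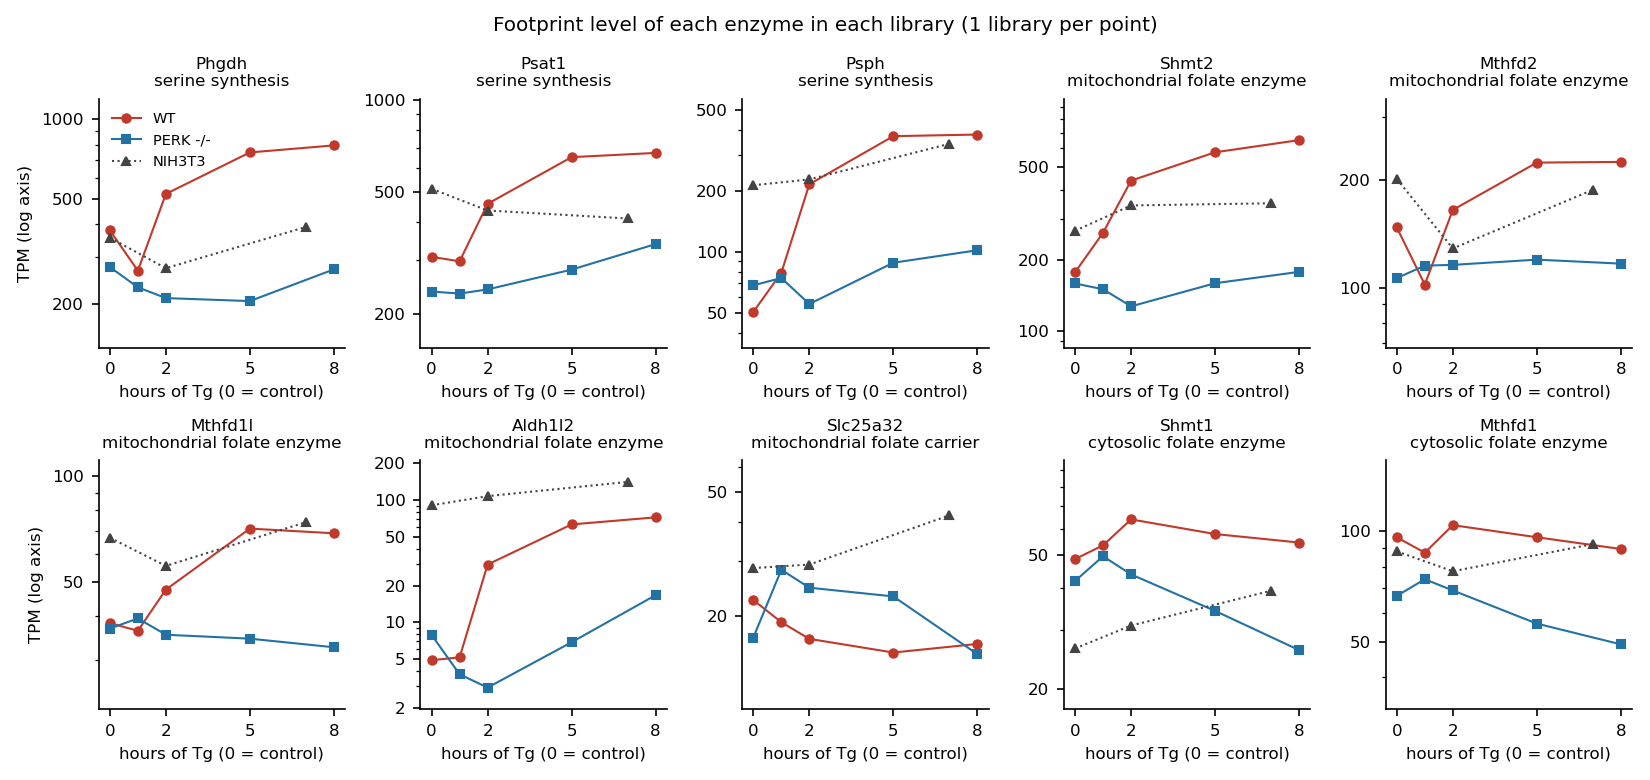
Footprint level (TPM, log axis) of each of the 10 genes against hours of Tg, with 0 for the control and 1 library per point, in WT MEFs (red circles), PERK -/- MEFs (blue squares) and NIH3T3 cells (grey triangles). In WT MEFs Aldh1l2 goes from 4.90 to 72.4 TPM and Psph from 50.6 to 380.2, while Mthfd1 stays between 87.3 and 104.

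Changes are given from here as the log2 ratio of a treated library to the control of its own genotype or cell line, after TPM values under 4 were raised to 4, and a gene was called changed at 2-fold or more. All 10 genes passed the limit on low values in both tables, beside 10432 genes in the MEF table and 10117 in the NIH3T3 table. The comparisons within a genotype or line share 1 control library. Because TPM values sum to the same total in every library, each change is relative to the other genes. By the study's polysome profiles, total translation dropped in treated WT MEFs and changed little in PERK -/- MEFs. A larger share in treated WT MEFs is thus not the same as more ribosomes, and the genotypes differ in this scale. In these bulk libraries a change in every cell and a change in the share of cells that carry a transcript cannot be told apart. The intervals have 95% confidence, are the exact conditional (Clopper-Pearson) intervals of expected counts per library total, and cover counting error only. They are on the CPM scale, where folds differ slightly from those on the TPM scale.

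In WT MEFs the number of genes up at least 2-fold grew with time. At 1 h, 0 of the 10 were up and 0 down, beside 4.33% and 2.29% of all genes up and down. At 2 h, 3 were up (Psph, Shmt2 and Aldh1l2) and 0 down, beside 5.66% and 4.01% of all genes. Psat1 joined at 5 h, which made 4 up and 0 down beside 5.86% and 3.55%. Phgdh joined at 8 h, which made 5 up and 0 down beside 6.45% and 3.87%. The median change of the 10 genes was -0.06, 0.43, 0.94 and 0.96 at 1, 2, 5 and 8 h, while the median of all genes stayed within 0.01 of 0.

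Little of this was seen in PERK -/- MEFs. At 1 h, 0 of the 10 were up and 0 down, beside 0.719% and 3.38% of all genes. At 2 h the counts were 0 and 0, beside 0.623% and 5.78%, and at 5 h 0 and 0, beside 3.26% and 4.77%. Aldh1l2 was the single gene up at 8 h and 0 were down, beside 3.28% and 2.73%. The median change of the 10 genes was 0.11, -0.02, -0.05 and 0.05 at the 4 times, beside -0.06, -0.11, 0 and 0.04 for all genes. At 2 h the scaling mattered, since TMM factors put the median of the 10 at 0.19 and DESeq2 size factors at 0.16, and both moved the median of all genes by 0.11.

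NIH3T3 cells had no gene of the 10 past 2-fold. At 2 h, 0 were up and 0 down, beside 5.76% and 3.76% of all genes, and at 7 h 0 and 0, beside 7.01% and 8.06%. The medians of the 10 were -0.07 and 0.27, beside -0.13 and 0 for all genes. DESeq2 size factors moved the median of all genes at 2 h by 0.13 and put that of the 10 at 0.09, and CPM and TMM factors put it at 0.05, so its sign there rests on the scaling.

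The share of all counts that fell on the 10 genes gives their sum on the scale of the library. WT MEFs had 0.193% untreated (Wilson interval 0.190% to 0.195%) and 0.182%, 0.30%, 0.409% and 0.431% (0.427% to 0.435%) after 1, 2, 5 and 8 h. The share in PERK -/- MEFs was 0.151% untreated and 0.15%, 0.143%, 0.145% and 0.160% after these times. NIH3T3 cells had 0.294% untreated, 0.298% after 2 h and 0.332% after 7 h. The 10 genes thus took more than double their untreated share of ribosomes in WT MEFs by 5 h and at most a slightly larger one in the other cells.

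**Figure D2:**
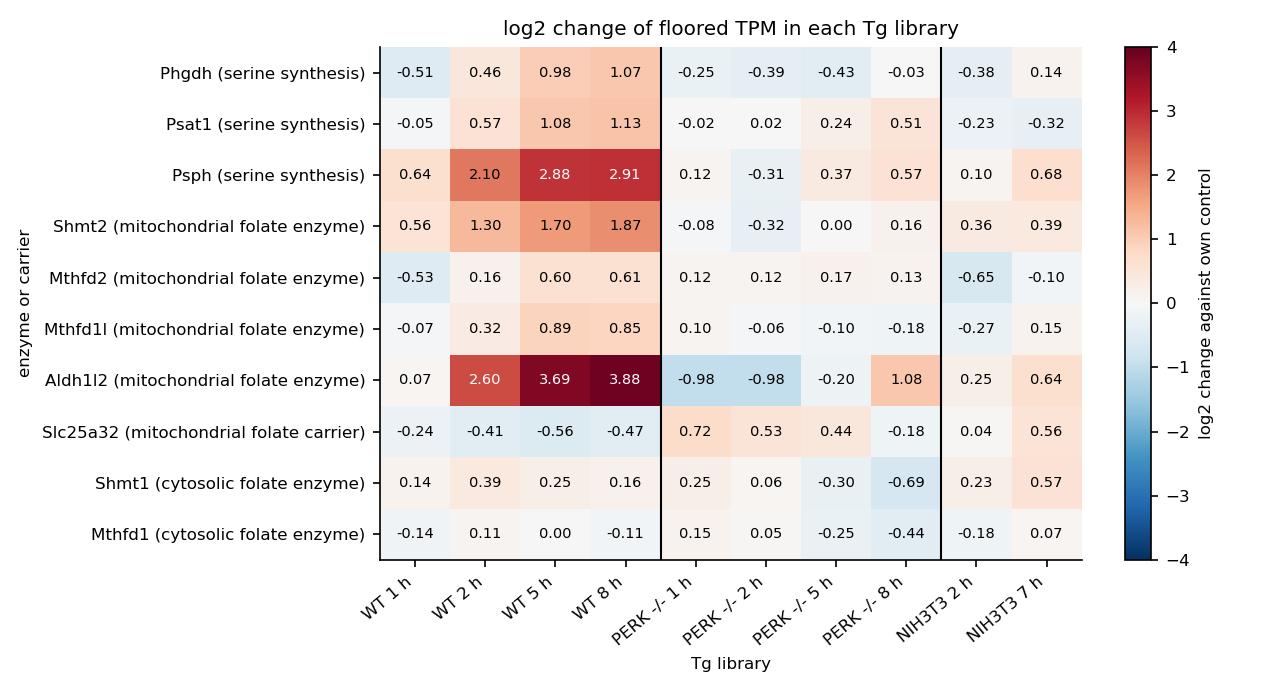
Colour map of the log2 change of each gene (rows, grouped by role) in each of the 10 Tg libraries (columns) against the control of its genotype or line, with the value in each cell. The WT columns at 5 and 8 h hold the highest values (up to 3.88 for Aldh1l2), and the PERK -/- and NIH3T3 columns stay below 1 except for Aldh1l2 in PERK -/- MEFs at 8 h (1.08).

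Phgdh oxidises 3-phosphoglycerate in the first step of serine synthesis. WT MEFs had 379.9 TPM of Phgdh untreated and 267, 522, 749 and 797 after 1, 2, 5 and 8 h. It dipped at 1 h and then passed its starting level, with a log2 change of -0.51 at 1 h and 1.07 at 8 h. The fold at 8 h was 2.10 (interval 2.04 to 2.16), close enough to the threshold that TMM factors (0.97), DESeq2 size factors (0.96) and the removal of a trend on GC content (0.85) each put the log2 change below 1. Phgdh in PERK -/- MEFs was at 276 TPM untreated and 231, 210.4, 205 and 270.3 after these times. All treated PERK -/- libraries lay below their control, though that at 8 h was within counting error of it (0.927 to 1.02 times on the CPM scale). NIH3T3 cells had 356 TPM untreated, 273 after 2 h and 391 after 7 h.

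Psat1, the aminotransferase that makes phosphoserine, rose without the early dip of Phgdh. WT MEFs had 308 TPM of Psat1 untreated and 298, 459, 651 and 672 after 1, 2, 5 and 8 h. The fold was 2.11 (2.02 to 2.20) at 5 h and 2.18 (2.10 to 2.27) at 8 h, and with TMM factors or DESeq2 size factors the log2 change at 5 h was 0.99. By 8 h Psat1 had also risen in PERK -/- MEFs, which had 238 TPM untreated and 234, 241, 280.0 and 339 after these times. Its log2 change at 8 h there was 0.51, a fold of 1.43 (1.34 to 1.51). The change in NIH3T3 cells went the other way, from 514 TPM to 436 at 2 h and 411 at 7 h, and both intervals lay below 1 (0.872 to 0.977 and 0.767 to 0.837).

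Psph, the phosphatase of the last step, had the largest change of the serine enzymes. WT MEFs had 50.6 TPM of Psph untreated and 78.9, 216, 373 and 380.2 after 1, 2, 5 and 8 h. The fold was already 4.27 at 2 h and reached 7.52 at 8 h (7.31 on the CPM scale, 6.57 to 8.16). Psph in PERK -/- MEFs was at 68.5 TPM untreated and 74.3, 55.3, 88.5 and 102 after these times, with a fold of 1.49 at 8 h (1.38 on the CPM scale, 1.19 to 1.60). NIH3T3 cells had 214 TPM untreated, 228 after 2 h and 342 after 7 h, with a log2 change of 0.68 at 7 h. The untreated NIH3T3 level was thus near that of WT MEFs after 2 h of Tg. The order of the serine enzymes by change at 8 h in WT MEFs, Psph before Psat1 before Phgdh, was the reverse of their order by level in the WT control, though the intervals of Psat1 and Phgdh overlap.

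Shmt2, the mitochondrial hydroxymethyltransferase that takes the carbon unit from serine, rose at every step in WT MEFs. WT MEFs had 178 TPM of Shmt2 untreated and 262, 437, 578 and 651 after 1, 2, 5 and 8 h. It was 1 of 3 genes with a fold past 2 at 2 h (2.46), and the fold at 8 h was 3.67 (3.52 to 3.81). Shmt2 in PERK -/- MEFs was at 159 TPM untreated and 150.3, 127, 159 and 178 after these times. Its largest shift there was a log2 change of -0.32 at 2 h, and the value at 5 h was level with the control. NIH3T3 cells showed a smaller rise, from 267 TPM to 343 at 2 h and 350.0 at 7 h, with log2 changes of 0.36 and 0.39.

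Mthfd2, the mitochondrial dehydrogenase and cyclohydrolase, fell before it rose. WT MEFs had 148 TPM of Mthfd2 untreated and 102, 165, 224 and 225 after 1, 2, 5 and 8 h. The log2 change was -0.53 at 1 h and 0.61 at 8 h, and the fold at 8 h was 1.52 (1.55 on the CPM scale, 1.46 to 1.65), short of the 2-fold threshold. Mthfd2 in PERK -/- MEFs stayed between 107 TPM untreated and 120.1 after 5 h. NIH3T3 cells dropped from 202 TPM to 129 at 2 h and returned to 188 at 7 h. Mthfd2 and Phgdh were the genes of the 10 with a log2 change below -0.50 at 1 h in WT MEFs.

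Mthfd1l, the mitochondrial formyltetrahydrofolate synthetase that lets formate leave the organelle, changed like Mthfd2 but without the early fall. WT MEFs had 38.2 TPM of Mthfd1l untreated and 36.3, 47.6, 71.0 and 68.9 after 1, 2, 5 and 8 h. The fold was 1.86 (1.72 to 2.01) at 5 h and 1.80 (1.69 to 1.93) at 8 h. Mthfd1l in PERK -/- MEFs lay between 32.6 TPM at 8 h and 39.4 at 1 h around a control of 36.9. NIH3T3 cells had 66.9 TPM untreated, 55.6 after 2 h and 74.1 after 7 h.

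Aldh1l2 had the largest change of all 10. WT MEFs had 4.90 TPM of Aldh1l2 untreated and 5.16, 29.7, 63.4 and 72.4 after 1, 2, 5 and 8 h. It was flat at 1 h, and the rise to 2 h was the steepest of any of the 10 genes between neighbouring times (2.53 on the log2 scale). The fold at 8 h was 14.8 (15.6 on the CPM scale, 13.3 to 18.5), from 161 counts in the control to 2354. Aldh1l2 in PERK -/- MEFs was at 7.88 TPM untreated and 3.75, 2.92, 6.87 and 16.7 after these times. With values under 4 raised to 4, the log2 change there was -0.98 at both 1 and 2 h, just inside the 2-fold limit. With a floor of 1 TPM it was -1.07 and -1.43, at 1 h without the GC trend it was -1.01, and at 2 h it was also below -1 on the CPM scale (-1.20), with a pseudocount (-1.18), with TMM factors (-1.06) or DESeq2 size factors (-1.08) and without the GC trend (-1.03). At 8 h Aldh1l2 rose in PERK -/- MEFs too, with a fold of 2.12 (2.24 on the CPM scale, 1.83 to 2.74) from 138 counts to 341, though with a pseudocount of 1 the log2 change was 0.99. All NIH3T3 libraries, at 90.9 TPM untreated, 108 after 2 h and 141 after 7 h, lay above the highest MEF value.

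Slc25a32, which carries folate into mitochondria, did not rise with the mitochondrial enzymes in WT MEFs. WT MEFs had 22.5 TPM of Slc25a32 untreated and 19.1, 16.9, 15.3 and 16.3 after 1, 2, 5 and 8 h, lower in every treated library. The fold at 8 h was 0.723 (0.592 to 0.883), and at 1 and 2 h, with 65 and 40 counts, the fall was not detectable at this depth. PERK -/- MEFs went from 17.1 TPM untreated up to 28.2 at 1 h, and then to 24.7, 23.1 and 15.1 at the later times. The NIH3T3 level was 28.5 TPM untreated, 29.3 after 2 h and 42.1 after 7 h, a rise at 7 h of 0.56 on the log2 scale (1.43 times on the CPM scale, 1.20 to 1.69).

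Of the cytosolic enzymes, Shmt1 carries out the same reaction as Shmt2. WT MEFs had 48.8 TPM of Shmt1 untreated and 53.6, 64.0, 57.9 and 54.6 after 1, 2, 5 and 8 h, with a fold of 1.12 (1.02 to 1.23) at 8 h. PERK -/- MEFs had 41.9 TPM untreated and 49.7, 43.9, 34.1 and 26.1 after these times. After 1 h it declined at each later time, and its log2 change of -0.69 at 8 h (fold 0.622, 0.529 to 0.722) was the lowest of the 10 genes in that library. NIH3T3 cells rose from 26.4 TPM to 30.9 at 2 h and 39.2 at 7 h.

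Mthfd1, the cytosolic enzyme with the dehydrogenase, cyclohydrolase and synthetase activities in 1 protein, had the smallest changes of the 10 in WT MEFs at 2, 5 and 8 h, though not at 1 h. WT MEFs had 96.1 TPM of Mthfd1 untreated and 87.3, 104, 96.2 and 89.4 after 1, 2, 5 and 8 h. The fold at 8 h was 0.930 (0.886 to 0.978). PERK -/- MEFs had 66.6 TPM untreated and 73.9, 68.9, 56.0 and 49.2 after these times, a fold of 0.738 (0.677 to 0.797) at 8 h. The NIH3T3 libraries lay between 77.7 TPM at 2 h and 92.1 at 7 h around a control of 88.1.

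The mitochondrial and cytosolic folate enzymes were then compared as the median log2 change of Shmt2, Mthfd2, Mthfd1l and Aldh1l2 minus that of Shmt1 and Mthfd1, with counting intervals from the delta method. WT MEFs had a difference of 0.002 (interval -0.26 to 0.27) at 1 h, when Shmt2 was higher (0.56) and Mthfd2 lower (-0.53), and then reached 0.56 (0.41 to 0.71), 1.17 (1.06 to 1.29) and 1.33 (1.24 to 1.43) at 2, 5 and 8 h. At 5 and 8 h each of the 4 mitochondrial enzymes had a higher change than both cytosolic ones. PERK -/- MEFs had -0.19 (-0.32 to -0.06), -0.25 (-0.37 to -0.13), 0.23 (0.09 to 0.37) and 0.71 (0.56 to 0.86) at the 4 times. There too the 4 mitochondrial enzymes lay above both cytosolic ones at 5 and 8 h. The sides that moved were not the same in the genotypes. At 8 h in WT MEFs the mitochondrial median was 1.36 and the cytosolic one 0.03, whereas in PERK -/- MEFs the mitochondrial median was 0.15 and the cytosolic one -0.56. NIH3T3 cells had -0.03 (-0.21 to 0.14) and -0.05 (-0.17 to 0.07) at 2 and 7 h, and neither could be told from 0 at this depth. With Slc25a32 counted as mitochondrial, the WT values were 0.06, 0.77 and 0.82 at 2, 5 and 8 h.

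**Figure D3:**
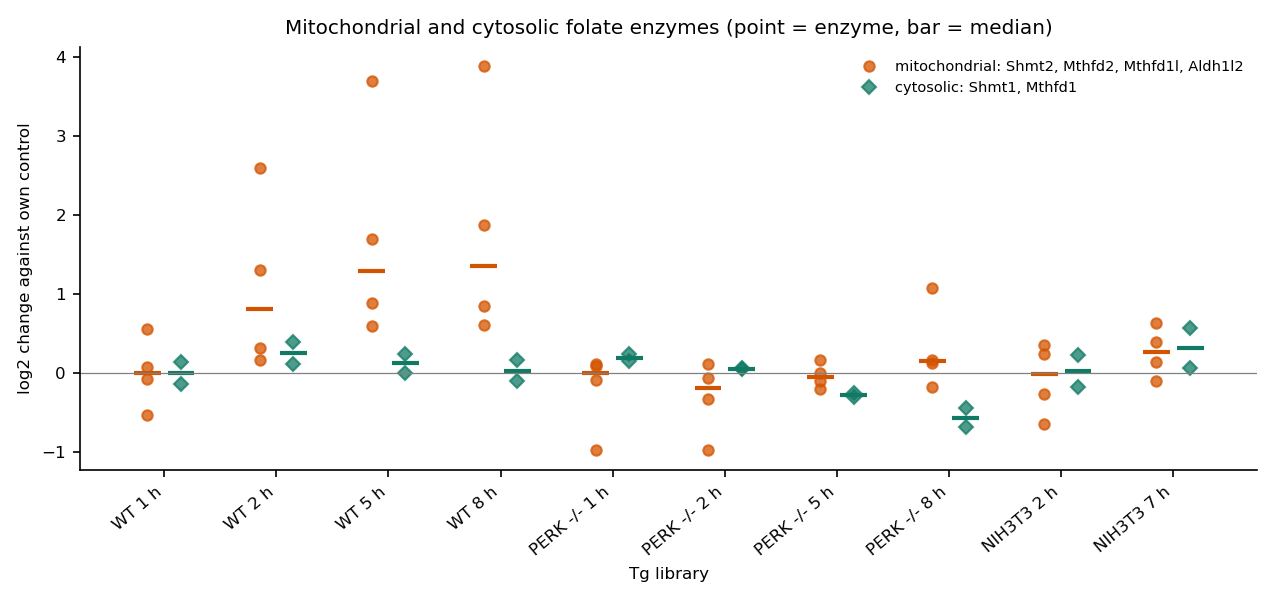
Log2 change against the own control in each Tg library for the 4 mitochondrial (orange circles) and the 2 cytosolic (green diamonds) folate enzymes, with 1 point per enzyme and a bar at each median. In WT MEFs at 8 h the medians are 1.36 and 0.03, and in PERK -/- MEFs at 8 h 0.15 and -0.56.

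In summed level, the 4 mitochondrial enzymes went from 368 TPM in the WT control to 1017 at 8 h, and the 2 cytosolic ones from 145 to 144. Their ratio rose from 2.54 to 2.88 at 1 h and 7.07 at 8 h. The mitochondrial sum in PERK -/- MEFs went from 310.5 to 345 TPM and the cytosolic sum from 109 to 75.3, and the ratio from 2.86 to 4.58. NIH3T3 cells had ratios of 5.48 untreated, 5.85 after 2 h and 5.74 after 7 h. The untreated NIH3T3 ratio lay between those of WT MEFs at 2 h (4.05) and at 5 h (6.08).

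Ratios of paralogs within a library do not depend on the scaling between libraries. Shmt2 to Shmt1 had a TPM ratio of 3.64 in untreated WT MEFs and of 4.89, 6.83, 9.98 and 11.9 after 1, 2, 5 and 8 h. From the counts, it was 3.27 times the control ratio at 8 h (2.95 to 3.62). That of PERK -/- MEFs was 3.79 untreated and 3.02, 2.90, 4.67 and 6.84 after these times, a change of 1.80 times (1.52 to 2.13) at 8 h. It first fell and then rose there, while in WT MEFs it rose throughout. The NIH3T3 ratio was 10.1 untreated, 11.1 after 2 h and 8.93 after 7 h, and both intervals of the change included 1.

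The ratio of Mthfd2 to Mthfd1 reached nearly the same change in both genotypes. Against the control ratio it was 0.767, 1.06, 1.54 and 1.67 times (1.54 to 1.80 at 8 h) in WT MEFs at 1, 2, 5 and 8 h. The PERK -/- libraries gave 0.971, 1.04, 1.33 and 1.52 times (1.33 to 1.73 at 8 h). The intervals at 8 h overlap, although Mthfd2 rose in WT MEFs and Mthfd1 fell in PERK -/- MEFs. For NIH3T3 cells the ratio was 0.723 times the control at 2 h and 0.907 times at 7 h. The ratio of Mthfd1l to Mthfd1 was 1.94 times the control (1.78 to 2.11) at 8 h in WT MEFs and 1.20 times (1.05 to 1.37) in PERK -/- MEFs. Aldh1l1, the cytosolic counterpart of Aldh1l2, had 0 to 8 counts in every library, so no change in that ratio is given.

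Mthfd2l is a second mitochondrial dehydrogenase close to Mthfd2. WT MEFs had 12.5 TPM of Mthfd2l untreated and 5.43, 6.32, 4.43 and 6.27 after 1, 2, 5 and 8 h. PERK -/- MEFs had 6.04 TPM untreated and 9.75, 9.47, 10.1 and 6.43 after these times. The ratio of Mthfd2 to Mthfd2l was thus 3.11 times the control (2.31 to 4.21) at 8 h in WT MEFs and 0.972 times (0.622 to 1.51) in PERK -/- MEFs. The NIH3T3 library at 7 h had 4.73 times the control ratio (2.27 to 11.4), from 8 counts of Mthfd2l.

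**Figure D4:**
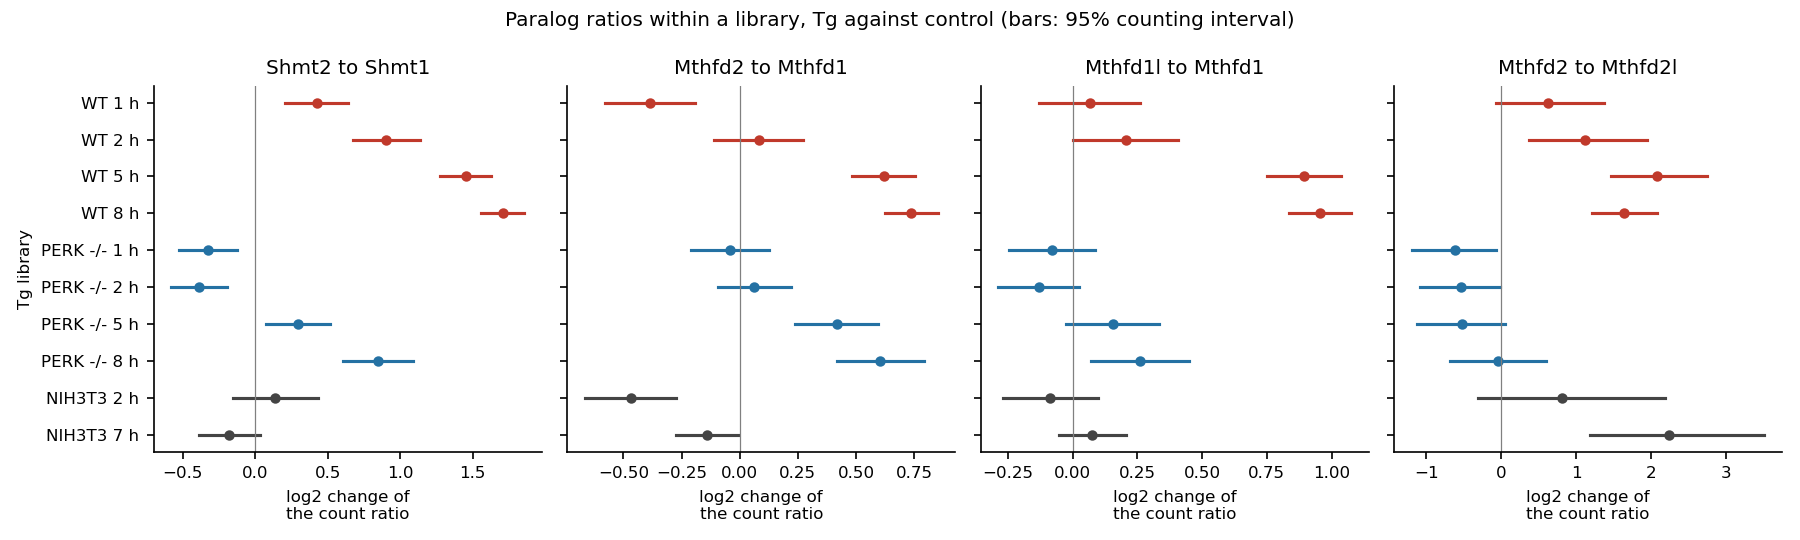
Log2 change of the ratio of expected counts of paralogs in each Tg library against its control, with 95% counting intervals. The pairs are Shmt2 to Shmt1, Mthfd2 to Mthfd1, Mthfd1l to Mthfd1 and Mthfd2 to Mthfd2l. Shmt2 to Shmt1 reaches 1.71 (3.27 times) at 8 h in WT MEFs and 0.85 (1.80 times) in PERK -/- MEFs. Mthfd2 to Mthfd1 reaches 0.74 (1.67 times) and 0.60 (1.52 times).

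The untreated genotypes were compared to see where the genes started. Past 2-fold in the PERK -/- control against the WT control, 0 of the 10 were up and 0 down, beside 6.04% and 1.97% of all genes. The median of the 10 was -0.30, beside 0.08 for all genes, and 8 of the 10 were lower in PERK -/- MEFs. With TMM factors the median of the 10 was -0.46 and with DESeq2 size factors -0.44, and both put the median of all genes at 0. The lowest was Mthfd1 (-0.53). The exceptions were Aldh1l2 (0.69) and Psph (0.44), the pair with the largest rise in treated WT MEFs. Both comparisons divide by the same WT control library, so a low value there would raise both, and no link is drawn. Mthfd1l differed by less than its counting error.

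The change in WT MEFs minus the change in PERK -/- MEFs at the same time compares the courses. At 1 h it was at least 2-fold higher in WT MEFs for 1 of the 10 (Aldh1l2, at 1.05, or 0.98 on the CPM scale), beside 10.6% of all genes. At 2 h this held for 3 (Psph, Shmt2 and Aldh1l2), beside 15.5%, and at 5 h for 4 (Phgdh, Psph, Shmt2 and Aldh1l2), beside 10.5%. At 8 h it held for 5 (Phgdh, Psph, Shmt2, Mthfd1l and Aldh1l2), beside 7.14%. The median difference of the 10 was -0.14, 0.46, 0.92 and 0.94 at the 4 times, beside 0.09, 0.19, 0.04 and 0 for all genes. At 5 and 8 h, 9 of the 10 had the higher change in WT MEFs, and the exception was Slc25a32, at -0.996 and -0.29, the latter within counting error. The count was 9 at 2 h too, but 8 on the CPM scale, where Mthfd1 turned to -0.009. The differences of Mthfd1 (0.06), Mthfd2 (0.04) and Shmt1 (0.33) at 2 h were within counting error. Psat1 stayed under 2-fold at each time, with a difference of 0.61 at 8 h, when it had risen in both genotypes. For Aldh1l2 the difference was 3.89 at 5 h and 2.80 at 8 h, when it had risen in PERK -/- MEFs as well. Whether these differences exceed those between replicates was not tested.

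**Figure D5:**
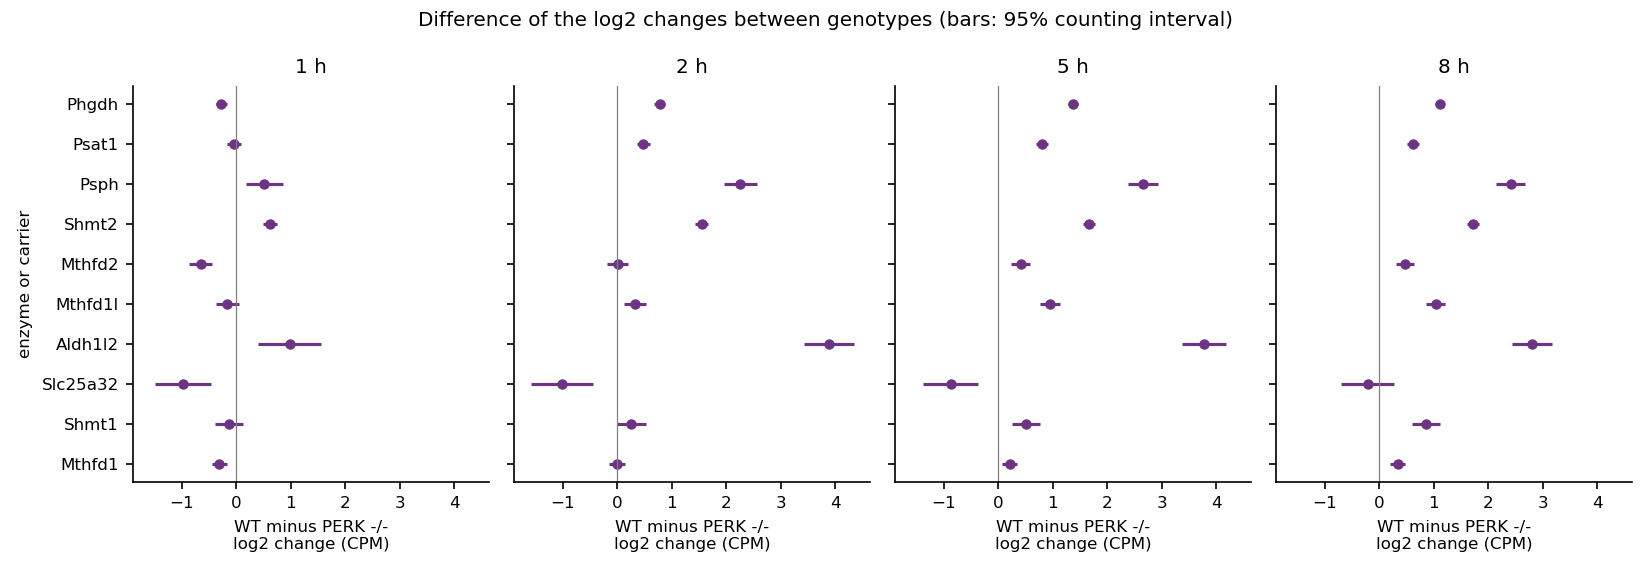
Difference between the log2 change in WT MEFs and that in PERK -/- MEFs at the same time (CPM scale) for each gene, with 1 panel per time and bars for the 95% counting interval. The points spread to the right from 1 h to 5 h, and Slc25a32 lies to the left of 0 in each panel, though at 8 h its interval (-0.69 to 0.28) includes 0.

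Neighbouring times give a measure of how far libraries of similar treatment lie apart. Between 5 and 8 h in WT MEFs the largest difference of the 10 was 0.19 (Aldh1l2), and the standard deviation of the log2 ratios over all genes was 0.19 too. That deviation covers genes of low counts as well, so it is no error estimate for abundant ones such as Shmt2 (0.17). Between 5 and 8 h in PERK -/- MEFs the standard deviation was 0.54, and the rise of Aldh1l2 by 1.28 was the one difference of the 10 past 2-fold. In NIH3T3 cells the standard deviation between 2 and 7 h was 0.63, and the largest difference of the 10 was 0.58 (Psph).

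The other genes of the pathway were taken from lists chosen by function. Among the other folate enzymes, Fpgs, which adds glutamates to folate, stood at 23.3 TPM in the WT control, 47.4 at 2 h, 47.5 at 5 h and 45.5 at 8 h. It just passed 2-fold at 2 h and 5 h (log2 changes of 1.03) but not on the CPM scale (0.94 and 0.98). Mthfd2l was down at 1 h and 5 h in WT MEFs, with the levels given above. At 2 and 8 h it lay just inside 2-fold (-0.98 and -0.99), and on the CPM scale just past it at 8 h (-1.002). In NIH3T3 cells the floor of 4 TPM held its change at -0.57 at both times. On the CPM scale it was -1.35 at 2 h and -2.32 at 7 h there, from 7 and 8 counts. Neither Fpgs nor Mthfd2l passed 2-fold in treated PERK -/- MEFs. Mthfs, at low counts, was up at 1 h in WT MEFs (log2 change 1.13, 18 counts) and down at 7 h in NIH3T3 cells (-1.40, 12 counts).

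The carriers Sfxn1, Sfxn2 and Sfxn3, of which Sfxn1 and Sfxn3 bring serine into mitochondria, gave 0 of 3 past 2-fold in any comparison. Of all genes, 0.623% to 7.01% were up and 1.97% to 8.06% down over these comparisons. The median change of the carriers was 0.63 at 5 h and 0.62 at 8 h in WT MEFs, with Sfxn1 at 0.06 and Sfxn2 at 0.85 at 8 h. In PERK -/- MEFs the median was -0.31, -0.43, 0.15 and -0.23 at 1, 2, 5 and 8 h. For NIH3T3 cells it was -0.22 at 2 h and -0.34 at 7 h. Of 6 glycine enzymes, 3 passed the limit on low values. Gcsh, the lipoyl carrier of the glycine cleavage system, fell in WT MEFs from 234 TPM to 111, 101, 96.1 and 97.0 at 1, 2, 5 and 8 h. Gcat, which splits aminoketobutyrate into glycine and acetyl-CoA, rose from 33.2 TPM to 68.8 at 8 h. Gcsh was thus down at least 2-fold at all 4 times in WT MEFs, while Shmt2 rose. Gcsh in PERK -/- MEFs was down at 5 h (log2 change -1.12) and near 2-fold at 8 h (-0.90). Gcat was down there at 2 h (-1.16, or -0.99 on the CPM scale).

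Of 7 genes that use serine, 5 passed the limit on low values, and 0 went past 2-fold in treated MEFs. Over these libraries 0.623% to 6.45% of all genes were up and 2.29% to 5.78% down. For Srr, 1 of the 5 in MEFs, the floor of 4 TPM holds the change at or near 0. On the CPM scale Srr rose 3.31-fold (1.58 to 7.58) in WT MEFs at 8 h, from 10 counts to 31. In PERK -/- MEFs at 8 h Srr rose 2.91-fold (1.34 to 7.00), from 9 counts to 29. Ptdss2 was down at 2 h in NIH3T3 cells (-1.08, or -0.96 on the CPM scale). All 5 genes of the methionine cycle passed the limit on low values. Of these, 0 went past 2-fold in WT MEFs, while Ahcy was down in PERK -/- MEFs at 5 h (-1.33), beside 4.77% of all genes. In treated WT MEFs 4.33% to 6.45% of all genes were up and 2.29% to 4.01% down. In NIH3T3 cells at 7 h Mat2a was down (-1.04) and Ahcy up, from 41 counts to 363. Ahcy was at 2.60 TPM in the NIH3T3 control, 2.57 at 2 h and 44.2 at 7 h. Untreated MEFs had 288 TPM (WT) and 155 TPM (PERK -/-), and why the NIH3T3 level was so low was not tested. These counts of genes do not cover changes under 2-fold, and at such shares a count of 0 in a list this short says little.

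The genes most like Psat1 and Mthfd2 were looked for over the 10 Tg libraries, among 6690 genes outside the 10 that passed the limit on low values in both tables and had at least 100 counts in every control. The measure was the root mean square difference of the log2 changes. Nearest to Psat1 were Gpx4 (0.18), Ghitm (0.21), Pi4k2a (0.22), Pebp1 (0.23) and Mrpl4 (0.23). Among the nearest to Mthfd2 were Lgals1 (0.19), Mrpl2 (0.19), Tsc22d2 (0.20) and Gadd45gip1 (0.21). Among the 10 genes themselves, Mthfd1l was the nearest to both, at 0.32 from Psat1 and 0.28 from Mthfd2, and Aldh1l2 the farthest, at 1.49 and 1.77. Over all 6699 genes compared, Mthfd1l ranked only 77th for Psat1 and 58th for Mthfd2, so many genes outside the 10 lay nearer.

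Promoter sequences were at hand for 8 of the 10 genes (9 promoters, 250 bases before the start that the promoter set gives), and not for Aldh1l2 and Slc25a32. That start need not match the gene positions printed above. The windows of Mthfd2 (chr6:83317605-83317854), Mthfd1 (chr12:76254982-76255231) and the second of Psat1 lie inside the gene as placed there. Those of Psph and Mthfd1l overlap it in part. The motif counts below thus do not all describe sequence upstream of the genes. The motif TGATGNAA, the core of the element bound by dimers of C/EBP and ATF proteins, was in 0 of the 8 on either strand and in 3.45% of all 32851 promoters. The looser motif TGANGNAA, of which the first is a special case and which was added after seeing the data, was in 2 of the 8 and in 14.1% of all. The promoters of Shmt2 and Shmt1 are printed because this pair parted the most in WT MEFs among the mitochondrial and cytosolic paralogs with a ratio given, and capitals mark the match to the looser motif.
Shmt2: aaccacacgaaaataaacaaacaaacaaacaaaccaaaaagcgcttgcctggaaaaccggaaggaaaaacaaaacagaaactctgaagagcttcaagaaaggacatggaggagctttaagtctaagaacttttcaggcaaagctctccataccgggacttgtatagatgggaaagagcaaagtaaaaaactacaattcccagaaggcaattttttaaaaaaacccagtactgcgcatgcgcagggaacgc
Shmt1: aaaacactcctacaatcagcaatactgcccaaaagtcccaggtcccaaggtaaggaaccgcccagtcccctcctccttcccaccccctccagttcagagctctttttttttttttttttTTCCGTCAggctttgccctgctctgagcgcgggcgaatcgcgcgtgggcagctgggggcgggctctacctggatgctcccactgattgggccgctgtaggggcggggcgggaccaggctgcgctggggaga
The first is chr10:127522445-127522694 and the second chr11:60811266-60811515, both read 5′ to 3′ on the minus strand of GRCm38. The match in Shmt1, the paralog that changed little, lies 131 to 124 bases before the start and reads as the motif on the opposite strand. The other match was in Mthfd1l, 190 to 183 bases before the start that the promoter set gives, in a window that overlaps the gene as placed above. The windows of Shmt2 and Shmt1 differ in composition, with a GC content of 40.8% and 60.0%. A match describes letters in the window only, and binding was not measured.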

How the data were processed

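All 13 footprint libraries were used. Per the authors' notes, footprints of 22 to 34 nt were filtered with STAR, aligned with Bowtie2 to mm10 coding sequences clipped by 30 nt at each end, and counted with RSEM (versions not stated). Gene-level expected counts, deposited without scaling between libraries, are whole numbers. The TPM values, deposited by the authors, were scaled by RSEM within each library. The limits used (mean TPM of at least 2, floor of 4 TPM, 2-fold) follow the study. The mean was taken within the MEF table and within the NIH3T3 table, while the study states an average over all its samples. The members, lists and rules were chosen with earlier results of these data known. Named genes are the 10 members, Eif2ak3, Atf4, listed pathway genes past 2-fold in WT MEFs at 5 or 8 h, and genes from the 5 nearest to Psat1 and to Mthfd2. Some planned genes, and the results that need them, are not reported here. Other pathway genes named (Mthfs, Ptdss2, Srr, Ahcy, Mat2a, Sfxn1, Sfxn2) were picked after their values were seen. Ratio intervals were exact conditional ones, those of differences came from the delta method on counts, and those of shares were Wilson intervals. No test was made, since there were no replicates. Alternatives were CPM, TMM factors or DESeq2 size factors in place of TPM, a pseudocount of 1 or a floor of 1 TPM, a limit of 5 TPM or none, folds of 1.5 and 3, a GC trend taken out by lowess (fraction 0.3), summed TPM, and the carrier counted as mitochondrial. Their use on the untreated genotypes and on the difference of the courses, and the looser motif, were chosen after seeing the data. Coding sequences came from GENCODE M21 and gene positions and promoters from RefSeq, both on GRCm38, the assembly of mm10. The steps were checked on simulated data. Tools were Python 3.11.15 (scipy 1.17.1, numpy 2.4.6, statsmodels 0.14.6, pandas 2.3.3, matplotlib 3.10.9) and R 4.3.3 (DESeq2 1.42.0, edgeR 4.0.16).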

Additional observations from a re-analysis of the deposited data

Results flagged for a closer look

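Mthfd2 moved in opposite directions in every treated library of PERK -/- MEFs and NIH3T3 cells. Its log2 change was 0.12, 0.12, 0.17 and 0.13 at 1, 2, 5 and 8 h in PERK -/- MEFs, and -0.65 and -0.10 at 2 and 7 h in NIH3T3 cells. Scaling by TMM factors put the value at 7 h at 0.01 and DESeq2 size factors put it at 0.05, so the split rests on the scaling. Slc25a32 was lower in every treated WT library, with log2 changes of -0.24, -0.41, -0.56 and -0.47 at 1, 2, 5 and 8 h. It was higher in both NIH3T3 libraries, at 0.037 and 0.56, where the value at 2 h was -0.02 without the GC trend. The WT values at 1 and 2 h and the NIH3T3 value at 2 h lie within counting error of 0. The mitochondrial folate enzymes gained on the cytosolic ones in every treated WT library, by 0.002, 0.56, 1.17 and 1.33, and lost in both NIH3T3 libraries, at -0.033 and -0.050. The WT value at 1 h and both NIH3T3 values lie within counting error of 0, and the ratio of summed TPM went the other way in NIH3T3 cells, from 5.48 to 5.85 and 5.74. The ratio of Mthfd2 to Mthfd2l rose in WT MEFs, by 0.62, 1.12, 2.08 and 1.64 on the log2 scale, and in NIH3T3 cells, by 0.82 and 2.24, but not in PERK -/- MEFs, at -0.62, -0.54, -0.53 and -0.041. Mthfd2l had 7 to 152 counts per library, and the values at 1 h in WT MEFs, at 5 and 8 h in PERK -/- MEFs and at 2 h in NIH3T3 cells lie within counting error of 0. None of these differences between groups was tested.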

How the results depend on the processing

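No replicate could be left out, since each condition was 1 library. Recomputed medians of the 10 genes lay between the second lowest and the second highest gene of their comparison in 86 of 88 cases, and those of the difference between WT and PERK -/- MEFs in 32 of 32. Both exceptions were at 2 h in PERK -/- MEFs, with TMM factors (0.19) and DESeq2 size factors (0.16). That band is wide, from -0.11 to 2.91 at 8 h in WT MEFs, so few rescalings could leave it. All 10 genes pass a limit of 5 TPM or none, so those settings could not move these medians. The medians close to 0, in PERK -/- MEFs at 2, 5 and 8 h and in NIH3T3 cells at 2 h, changed sign with the scaling, while that of WT MEFs at 8 h ran from 0.85 to 0.96. At 1.5-fold, the number of genes up was 1 at 1 h and 7 at 5 h in WT MEFs, 1 at 1 h in PERK -/- MEFs, 2 at 7 h in NIH3T3 cells and 1 in the untreated PERK -/- MEFs. At 3-fold it was 3 at 8 h in WT MEFs and 0 at 8 h in PERK -/- MEFs, where a pseudocount of 1 also gave 0. Mthfd2 (1.52-fold) and Mthfd1l (1.80-fold) also passed 1.5-fold at 8 h in WT MEFs. The shares of all genes at 1.5-fold and 3-fold are not given here, so these counts have no background beside them. The lead of the mitochondrial over the cytosolic enzymes became 1.05 at 5 h and 1.19 at 8 h in WT MEFs and -0.11 at 2 h in PERK -/- MEFs without the GC trend. With the carrier added it was 0.06, 0.77 and 0.82 at 2, 5 and 8 h in WT MEFs and -0.12 at 2 h in PERK -/- MEFs, and from summed TPM it was 1.47 at 8 h in WT MEFs. Fold thresholds and the added carrier change these values by their construction, and for the others the cause was not tested. Of 880 recomputed changes of single genes, 14 crossed 2-fold and 16 changed sign, with shifts of -0.45 to 0.25. The 880 include the limits of 5 TPM and none, which by construction leave each of these genes unchanged. Depth limits Slc25a32 (40 counts in WT MEFs at 2 h) and Aldh1l2 (52 counts in WT MEFs at 1 h) the most.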
